A study of Drosophila melanogaster with 12 samples.

Results

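The proteasome subunit genes described here are the genes whose symbol in the deposited table begins with Prosalpha or Prosbeta, or with Pros, Rpn, or Rpt followed by a digit. This naming rule used no measured value and found 41 of the 15998 genes listed, of which 28 are standard subunits and 13 are paralogs of a standard subunit. Of the 41 genes, 29 passed a filter on low counts, 27 of them standard subunits and 2 of them paralogs. The proteasome degrades proteins that carry ubiquitin. Its 20S core is a barrel of stacked rings, with alpha subunits in the outer rings and beta subunits, among them the catalytic ones, in the inner rings. The 19S regulatory particle caps the barrel, with Rpt ATPases that unfold substrates and Rpn subunits that bind and deubiquitinate them. In flies, duplicated copies of several subunits, many of them known from the testis, exist beside the standard genes.

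Nascent RNA, the RNA bound to transcribing polymerase in a washed chromatin pellet, was measured in 3 upSET mutant clones and in the S2 line from which they derive. upSET, listed as CG9007, encodes a chromatin factor with a SET domain. S2 is a male, polyploid Drosophila cell line with features of blood cells. Clone G3 carries a 67 bp deletion that takes away the start codon, clone A7 carries 2 separate deletions of 7 bp that shift the reading frame near the start, and clone B2 carries a 1 bp deletion that shifts the frame after 367 residues. Parental S2 cells are wild type for upSET, received no edit, and serve as the reference for the clones. Values of a line are given for replicate 2 and then for replicate 1. Each mutant line was made with CRISPR/Cas-9 and grew from 1 sorted cell, so that a difference between a clone and S2 cannot be told apart from one that arose with the clone. There were 2 libraries per line and 8 in all. The labels do not say whether the libraries of a line came from separate cultures, and the p-values then measure only the spread between these samples.

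Sense counts summed to between 8333319 and 10902304 in the libraries of replicate 1 and to between 4738785 and 5427807 in those of replicate 2. Levels are given as CPM, counts scaled to library size with TMM factors, and 3 counts correspond to between 0.283 and 0.642 CPM, a limit that covers counting error only. Genes with at least 1 CPM in at least 2 libraries were tested, 9612 in all, with edgeR's quasi-likelihood test on all 8 libraries and p-values adjusted by the Benjamini-Hochberg method over all of them. A gene was called at an adjusted p under 0.05. Libraries of the same replicate number deviated together from the mean of their line, so values from a model with a blocking term for that number are given where they changed a call. CG9007 had 461 and 464 CPM in G3 cells, 606 and 761 CPM in A7 cells, and 680 and 665 CPM in B2 cells, against 567 and 544 CPM in S2 cells, in replicates 2 and 1. Its lesions are too small for counts over the whole gene to check the genotypes. Of 9 blood cell markers, 8 were listed and 7 passed the filter, with a summed level between 2392 and 3371 CPM in the 8 libraries. Genes of that list moved in opposite directions. By the log2 fold change (log2FC) against S2 from edgeR, the collagen IV genes Cg25C (4.99, adjusted p = 0.0264) and vkg (3.88, adjusted p = 0.0262) were higher in G3, and in A7 Cg25C was higher (4.46, adjusted p = 0.049) and Pxn, a peroxidasin, was lower (-1.78, adjusted p = 0.049). The part of such differences in the values below was not tested.

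Of the 28 standard subunit genes, 27 had nascent RNA in all 8 libraries, the exception being Prosalpha1. Per kb of gene extent, the mean over the 8 libraries lay between 10.7 CPM per kb for Rpn9 and 43.7 CPM per kb for Rpn2, a scaffold subunit of the 19S base. In the alpha ring, the level per kb was highest for Prosalpha7 (42.1 CPM per kb) and lowest for Pros28.1, the present Prosalpha4 (13.9 CPM per kb), with a median of 26.0 CPM per kb over 6 genes. In the beta ring, it was highest for Pros26, the present Prosbeta6 (33.5 CPM per kb), and lowest for Prosbeta2, which carries the trypsin-like site (11.4 CPM per kb), with a median of 17.4 CPM per kb over 6 genes. The 5 standard Rpt ATPases had a median of 34.02 CPM per kb, between Rpt1 at 37.5 and Rpt4 at 11.4 CPM per kb, and the 10 Rpn subunits had a median of 21.0 CPM per kb. A level per kb of extent depends on whether introns were counted, which is not given in the sources used here.

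**Figure D1:**
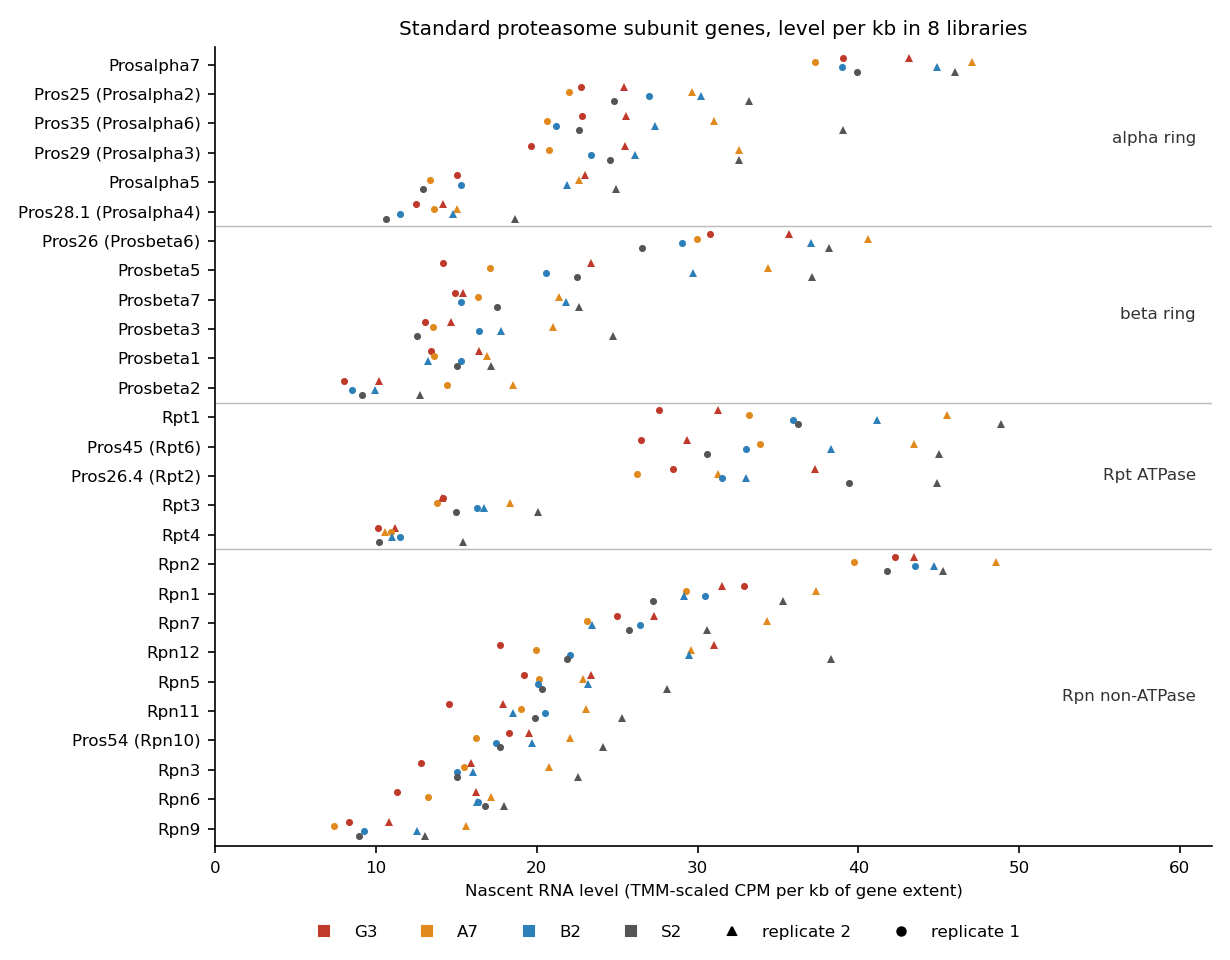
Nascent RNA level of the 27 standard proteasome subunit genes that passed the filter, in TMM-scaled CPM per kb of gene extent, with 1 point per library, colored by line and shaped by replicate number. Rpn2 and Prosalpha7 lead, Rpn9 is lowest on average, and for most genes the triangles of replicate 2 lie to the right of the circles of replicate 1.

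Neighboring genes in this order were seldom set apart by their spread. In G3, the leading genes were Rpn2 at 42.9 ± 0.87 and Prosalpha7 at 41.1 ± 2.92 CPM per kb, and in S2 they were Rpn2 at 43.5 ± 2.46 and Prosalpha7 at 43.0 ± 4.30 CPM per kb (SD, n = 2 each). Of the 26 pairs of neighbors in the order, the ranges of the libraries overlapped in 23 pairs in G3, 26 in A7, 24 in B2, and 26 in S2. Summed over the 28 standard genes, the level in replicates 2 and 1 was 1130.0 and 981 CPM in G3 cells, 1318 and 1002 CPM in A7 cells, and 1179 and 1068 CPM in B2 cells, against 1397 and 1054 CPM in S2 cells. The sums of the clones lay below that of S2 in replicate 2 in all 3 clones, whereas in replicate 1 the sum of B2 lay above that of S2.

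Prosalpha1, an outer ring subunit on 2R from 3714808 to 3716180 of the dm3 assembly, had 0 counts on both strands in all 8 libraries. CG30382, whose present name in RefSeq is Prosalpha1R, lies on 2R from 3717970 to 3719290 and also had 0 counts on both strands in each library. Only reads that aligned to a single place were kept, so any reads that the 2 genes share would not be counted at either. Whether the genes were transcribed cannot be told from the 0 counts. How alike the 2 sequences are was not tested. Of the 7 alpha subunits listed as standard genes, 6 were therefore measured.

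Most paralogs were barely counted, and 11 of the 13 did not pass the filter. Together, these 11 genes had 17 sense counts in the 4 libraries of replicate 2 and 96 in those of replicate 1. Prosbeta2R2, a paralog of the trypsin-like subunit, had the most, with 2 and 6 counts in G3 cells, 2 and 8 in A7 cells, and 4 and 7 in B2 cells, against 2 and 8 in S2 cells, in replicates 2 and 1. Prosalpha6T, a paralog of Pros35, had 2 and 12 counts in G3 cells, 0 and 9 in A7 cells, and 0 and 4 in B2 cells, against 0 and 8 in S2 cells. The counts of both genes overlapped between the lines. Pros28.1B (15 counts in all libraries together) and Pros28.1A (12 counts) are paralogs of Pros28.1, and 8 of the 12 counts of Pros28.1A were in replicate 1 of S2. Prosalpha3T, Prosbeta2R1, Prosbeta4R1, Prosbeta4R2, Rpn12R, and Rpt4R had between 1 and 3 counts each, and Prosbeta5R, a paralog of the chymotrypsin-like subunit, had 0 sense counts, which allows up to 3 counts per library. A difference between lines in these genes was not detectable at this depth. Of 12 testis markers 11 were listed and 3 passed the filter, and the testis gene nht was at 0 in all libraries.

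Rpt6R is a paralog of Pros45, the present Rpt6, and had the largest log2FC against S2 of the 29 genes in each clone. It lies on 3R from 26407920 to 26409466, and no other listed gene overlaps it. Rpt6R had 10.9 and 4.62 CPM in G3 cells, 14.5 and 11.2 CPM in A7 cells, and 4.50 and 5.19 CPM in B2 cells, against 3.00 and 1.04 CPM in S2 cells, in replicates 2 and 1. Each library of the 3 clones lay above both S2 libraries, which held for 1 of the 29 proteasome genes past the filter and for 3.79% of all genes tested, and the A7 libraries were the highest. These levels rest on 56 and 47 counts in G3 cells, 74 and 119 in A7 cells, and 21 and 44 in B2 cells, against 17 and 9 in S2 cells. Pros45, the standard gene, had 48.6 and 43.8 CPM in G3 cells, 72.0 and 56.1 CPM in A7 cells, and 63.4 and 54.6 CPM in B2 cells, against 74.5 and 50.7 CPM in S2 cells. Per kb of extent, the mean over the 8 libraries was 4.44 CPM per kb for Rpt6R and 35.01 CPM per kb for Pros45. The libraries of Pros45 overlapped those of S2 in A7 and B2 and lay below both S2 libraries in G3. In RNA from whole cultures, a lower share of cells that transcribe a gene and less nascent RNA per cell cannot be told apart. The testis markers summed to between 80.9 and 92.1 CPM in G3 cells, 76.8 and 87.7 CPM in A7 cells, and 74.7 and 75.8 CPM in B2 cells, against 73.2 and 79.9 CPM in S2 cells, of which fzo, mia, and twe made up nearly all, since the other 8 listed markers stayed at or below 0.58 CPM in every library. The part of these markers in the level of Rpt6R was not tested.

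**Figure D2:**
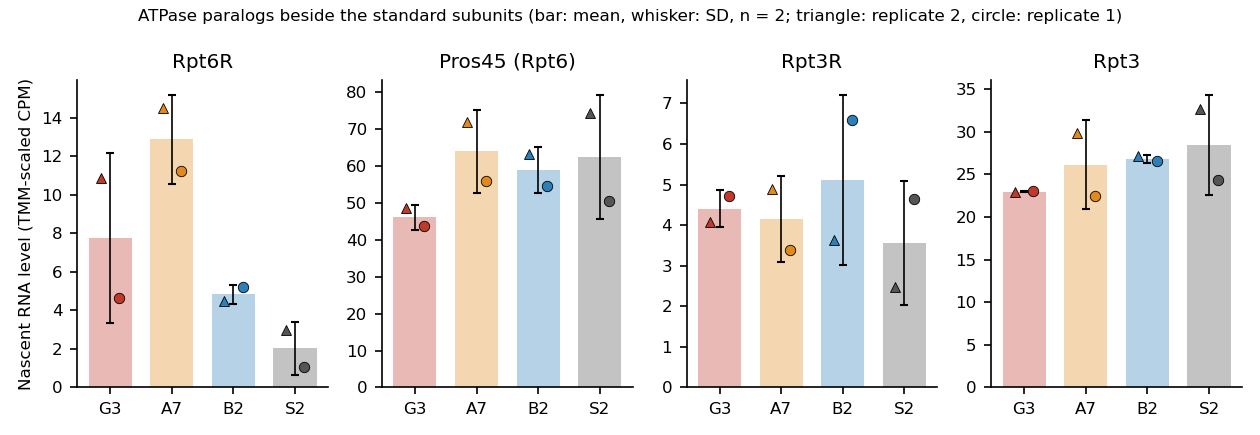
Nascent RNA level in TMM-scaled CPM of the ATPase paralogs Rpt6R and Rpt3R beside the standard genes Pros45 (Rpt6) and Rpt3, by line. Bars give the mean of 2 libraries, whiskers the SD, triangles replicate 2, and circles replicate 1. Rpt6R is at 10.9 and 4.62 CPM in G3 cells, 14.5 and 11.2 CPM in A7 cells, and 4.50 and 5.19 CPM in B2 cells, against 3.00 and 1.04 CPM in S2 cells, while Rpt3R overlaps between the lines.

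The log2FC of Rpt6R against S2 was 1.96 in G3 (standard error 0.58), 2.72 in A7 (0.58), 1.32 in B2 (0.59), and 2.00 for the mean of the 3 clones (0.52). Without the replicate block, none of these passed the threshold, with adjusted p = 0.268 in G3, 0.165 in A7, 0.999 in B2, and 0.355 for the mean from edgeR. With the replicate block, Rpt6R was higher than in S2 in G3 (log2FC 1.94, 3.83-fold, adjusted p = 0.0367 from edgeR), in A7 (2.78, 6.87-fold, adjusted p = 0.0077), and for the mean of the clones (2.06, adjusted p = 0.0344), and it did not pass the threshold in B2 (1.45, adjusted p = 0.362). DESeq2, fitted without the block, called it in A7 and for the mean, with adjusted p = 0.00303 and 0.0274. These calls rest on few libraries: with the block, the call in G3 was lost without S2 replicate 1 (adjusted p = 0.185), S2 replicate 2 (0.0722), or G3 replicate 2 (0.189), and the call in A7 was lost without S2 replicate 1 (0.0584) or A7 replicate 1 (0.0599). The call for the mean was lost without either S2 library (0.0511 for replicate 2 and 0.263 for replicate 1), A7 replicate 1 (0.0617), or B2 replicate 1 (0.0946). The difference of Rpt6R between A7 and B2 was 1.33 with the block (adjusted p = 0.0844 from edgeR) between G3 and A7 it was -0.84 (adjusted p = 0.284), and between G3 and B2 it was 0.49 (adjusted p = 0.579), none of which passed the threshold.

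Antisense counts made up 10.0% of the counts at Rpt6R over all libraries, with 7 and 4 antisense counts in G3 cells, 6 and 5 in A7 cells, and 0 and 9 in B2 cells, against 5 and 7 in S2 cells, and these counts overlapped between the lines. CG9702, which lies 47 bp from Rpt6R and was chosen after its values were seen, had 1.94 and 3.05 CPM in G3 cells, 1.77 and 3.78 CPM in A7 cells, and 1.5 and 4.25 CPM in B2 cells, against 1.24 and 1.86 CPM in S2 cells. In each pair of same-numbered libraries CG9702 was higher in the clone, with a log2FC of 0.69 (G3), 0.85 (A7), and 0.91 (B2). These levels of CG9702 rest on few counts. In replicate 2, 3 counts correspond to 0.642 CPM in B2 and 0.529 CPM in S2, more than the difference between these 2 libraries. On the other side, CG2246 at a distance of 9227 bp had a log2FC of 0.06, -0.10, and -0.13 in G3, A7, and B2. Over the 10 nearest tested genes, 5 on each side, the median log2FC was 0.41 (G3), 0.30 (A7), and 0.08 (B2). The farther of these genes included CG15543, 159136 bp away, which was higher in A7 with the block (6.18, adjusted p = 1.72e-05 from edgeR).

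Rpt3R, the other paralog past the filter, lies on 3R from 5580457 to 5582400 and overlaps CG8412. It had 4.08 and 4.72 CPM in G3 cells, 4.90 and 3.399 CPM in A7 cells, and 3.64 and 6.604 CPM in B2 cells, against 2.47 and 4.64 CPM in S2 cells. The libraries of each clone overlapped those of S2. Its log2FC was 0.29 (G3), 0.19 (A7), and 0.53 (B2), with adjusted p of at least 0.881 from edgeR, and antisense counts made up 35.6% of the counts at the gene.

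Against S2, no standard subunit gene passed the threshold without the replicate block, and most had a log2FC slightly below 0. Without the replicate block, 0 of the 29 proteasome genes past the filter were called in G3, where 0.603% of all genes tested were called, 0 in A7 (0.375% of all genes), 0 in B2 (0.0104%), and 0 for the mean of the clones (0.156%), each from edgeR. At an unadjusted p under 0.05, 3 of the 29 passed in G3 (11.1% of all genes), 3 in A7 (8.75%), 0 in B2 (3.25%), and 2 for the mean (7.84%), and with DESeq2 the counts were 0 for G3 (2.37% of all genes), 1 for A7 (1.86%), 0 for B2 (0.395%), and 1 for the mean (1.19%), in both cases Rpt6R. The median log2FC of the 29 genes was -0.27 (G3), -0.09 (A7), and -0.14 (B2), against -0.06, -0.05, and -0.03 for all genes tested. The log2FC was below 0 for 24 of the 29 genes in G3, for 20 in A7, and for 25 in B2. As the medians of all genes tested were below 0 too, the larger part of them also had a log2FC below 0. That share is not given here. All 3 comparisons share the S2 libraries. Without the block and without S2 replicate 2, these medians were 0.05 in G3, 0.13 in A7, 0.10 in B2, and 0.09 for the mean. In A7 the median was 0.14 without A7 replicate 1. Without the block, such a fit sets unequal replicate numbers against each other. With the block and without S2 replicate 2, the medians were -0.074 in G3, -0.014 in A7, -0.044 in B2, and -0.035 for the mean. With the block and without A7 replicate 1, the median in A7 was 0.003.

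Against the same-numbered S2 library, G3 and B2 had the lower medians in replicate 2. In G3, the median log2 ratio to S2 of the 29 genes was -0.30 in replicate 2, with 27 genes lower, and -0.08 in replicate 1, with 19 lower, and 19 genes were lower in both (33.8% of all genes were). In A7 the medians were -0.10 in both replicates, with 20 genes lower in replicate 2 and 19 in replicate 1, and 14 lower in both (33.7% of all genes). In B2 the median was -0.28 in replicate 2, with 27 genes lower, and 0.04 in replicate 1, with 11 lower, and 11 were lower in both (29.3% of all genes). Of the 9612 genes tested, 4873 (G3), 4976 (A7), and 4886 (B2) were lower than in S2 in replicate 2. In replicate 1, 5323 (G3), 5185 (A7), and 4926 (B2) of them were lower. In G3, the libraries of 7 of the 29 genes lay below both S2 libraries, namely Pros26.4, Pros45, Prosbeta7, Rpn11, Rpn6, Rpt1, and Rpt3, a share of 24.1% against 21.1% of all genes tested. In A7 this held for 1 gene (19.5% of all genes) and in B2 for 2 genes (13.3%). Above both S2 libraries lay 1 gene in G3 (17.1% of all genes), 2 in A7 (16.7%), and 1 in B2 (13.1%).

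**Figure D3:**
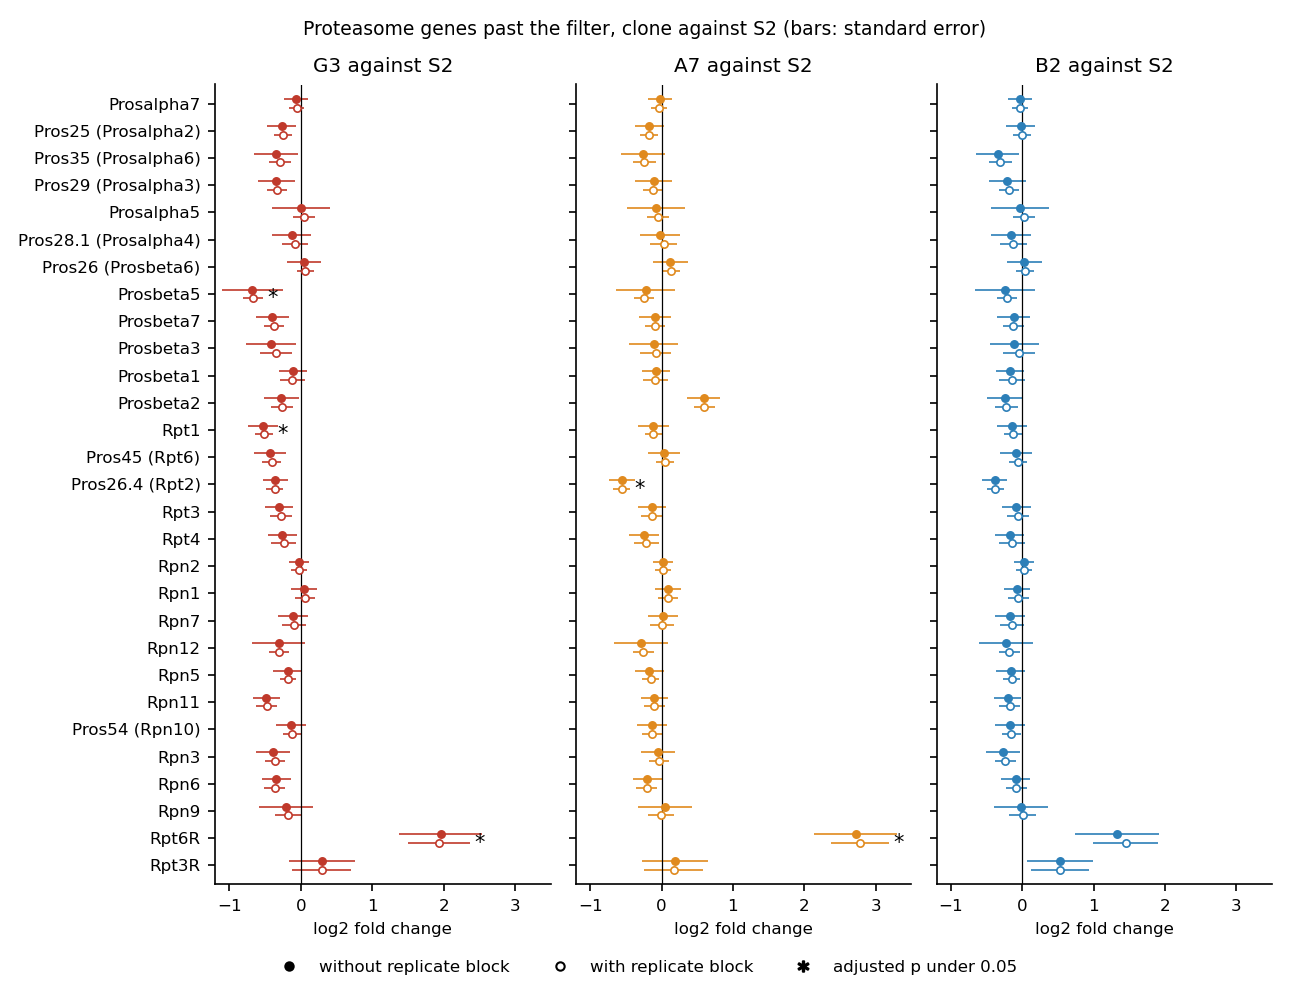
Log2 fold change against S2 of the 29 proteasome genes past the filter in G3, A7, and B2, by gene in structural order. Filled points are the fit without the replicate block, open points the fit with it, bars the standard error, and asterisks an adjusted p under 0.05. Most standard subunits lie slightly left of 0, while Rpt6R lies at 1.96, 2.72, and 1.32.

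With the replicate block, 3 of the 29 genes were called in G3, where 5.87% of all genes tested were, 2 in A7 (3.67%), 0 in B2 (0.427%), and 1 for the mean of the clones (1.99%). At an unadjusted p under 0.05, 10 of the 29 passed in G3 (21.0% of all genes), 3 in A7 (18.5%), 2 in B2 (9.82%), and 4 for the mean (18.5%). Beside Rpt6R, the genes called were Prosbeta5 and Rpt1, which were lower in G3, and Pros26.4, which was lower in A7.

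Prosbeta5, which carries the chymotrypsin-like site of the core, had 28.8 and 17.4 CPM in G3 cells, 42.4 and 21.1 CPM in A7 cells, and 36.6 and 25.4 CPM in B2 cells, against 45.7 and 27.7 CPM in S2 cells, in replicates 2 and 1. In each clone and each replicate it was lower than in the same-numbered S2 library, and the libraries of all 4 lines overlapped, with replicate 2 above replicate 1 in each line. The log2FC in G3 was -0.68 without the block (0.42 as standard error, adjusted p = 0.656) and -0.67 with it (standard error 0.14, adjusted p = 0.0309 from edgeR). Blocked values were -0.25 in A7 (adjusted p = 0.382) and -0.22 in B2 (adjusted p = 0.635). The call in G3 held without either A7 library and was lost without any other library, with a log2FC between -0.69 and -0.61 over the 8 fits.

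Rpt1, an ATPase of the base, had 47.2 and 41.6 CPM in G3 cells, 68.6 and 50.1 CPM in A7 cells, and 62.1 and 54.3 CPM in B2 cells, against 73.8 and 54.7 CPM in S2 cells. Both G3 libraries lay below every library of the other lines. Its log2FC in G3 was -0.53 without the block (adjusted p = 0.422) and -0.51 with it (standard error 0.12, adjusted p = 0.0459 from edgeR), and this call too held only without either A7 library, of the 8 libraries left out in turn. Rpt1 overlaps CG17985, whose log2FC in G3 was -0.51, and antisense counts made up 0.809% of its counts.

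Pros26.4, the present Rpt2, is an ATPase of the base with a part, known from yeast, in opening the gate of the core. It had 66.1 and 50.4 CPM in G3 cells, 55.3 and 46.4 CPM in A7 cells, and 58.4 and 55.8 CPM in B2 cells, against 79.4 and 69.7 CPM in S2 cells. Each library of the 3 clones lay below both S2 libraries, which held for 1 of the 29 proteasome genes and for 4.27% of all genes tested. Its log2FC was -0.36 (G3), -0.55 (A7), and -0.38 (B2), each with 0.18 as its standard error, and -0.43 for the mean (adjusted p = 0.531, 0.394, 0.999, and 0.531 from edgeR). With the block, Pros26.4 was lower in A7 (-0.56, adjusted p = 0.0405 from edgeR), while the adjusted p was 0.114 in G3, 0.365 in B2, and 0.0596 for the mean. The call in A7 held without either G3 library and was lost without any other library, with adjusted p between 0.0331 and 0.209 over the 8 fits. Pros26.4 lies on 3R from 19755595 to 19757363 and overlaps CG13599 and CG31142, and over the 10 nearest tested genes the median log2FC was -0.32 (G3), -0.21 (A7), and -0.31 (B2).

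Prosbeta2 was the standard subunit gene with the highest log2FC in A7. It had 13.8 and 10.8 CPM in G3 cells, 25.1 and 19.6 CPM in A7 cells, and 13.5 and 11.6 CPM in B2 cells, against 17.3 and 12.4 CPM in S2 cells, in replicates 2 and 1. Both A7 libraries lay above every library of the other lines, while those of G3 and B2 overlapped those of S2. The log2FC against S2 was 0.59 in A7 (adjusted p = 0.539, SE 0.24, edgeR, and 0.0694 once blocked), -0.27 in G3, and -0.24 in B2. With the block, Prosbeta2 was lower in G3 than in A7 by a log2FC of -0.86 (standard error 0.15, adjusted p = 0.0243 from edgeR, where 2.99% of all genes were called) and higher in A7 than in B2 by 0.82 (standard error 0.15, adjusted p = 0.0231, where 3.9% were called). Without the block the adjusted p was 0.413, where 0.208% of all genes were called, and 0.311, where 0.291% were.

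**Figure D4:**
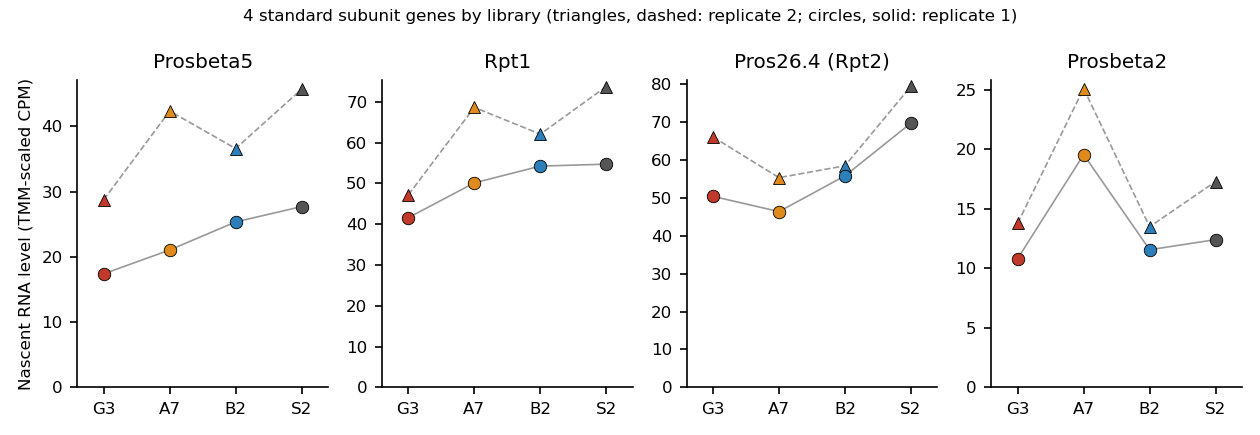
Nascent RNA level in TMM-scaled CPM of Prosbeta5, Rpt1, Pros26.4 (Rpt2), and Prosbeta2 by line, with triangles and dashed lines for replicate 2 and circles and solid lines for replicate 1. Replicate 2 lies above replicate 1 in each line, Pros26.4 is at 69.7 CPM or more in S2 and at 66.1 CPM or less in the clones, and Prosbeta2 is highest in A7.

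Prosbeta2 lies on 3L from 14992996 to 14994350 and overlaps Reck, which lies from 14994338 to 15007150, only at its end of higher coordinate. Reck had 647 and 396 CPM in G3 cells, 360 and 504 CPM in A7 cells, and 528 and 363 CPM in B2 cells, against 416 and 236 CPM in S2 cells. Antisense counts made up 39.2% of the counts at Prosbeta2, between 22.4% and 55.4% in single libraries, the highest share among the standard subunits. Other genes beside it also had a log2FC above 0 in A7, with 0.88 for mRpL39, 1.06 for mnd, and 0.41 for Reck. Over the 10 nearest tested genes, the median log2FC was 0.38 (G3), 0.60 (A7), and 0.30 (B2). upSET itself lies on the same arm from 13995223 to 14013251. The part of the overlapping and neighboring transcription in the level of Prosbeta2 was not tested.

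In the alpha ring, the gene with the lowest log2FC in each clone was Pros35, the present Prosalpha6, which had 29.5 and 26.37 CPM in G3 cells, 35.9 and 23.9 CPM in A7 cells, and 31.7 and 24.5 CPM in B2 cells, against 45.2 and 26.2 CPM in S2 cells. S2 replicate 2 was the highest library for this gene, the libraries of each clone overlapped those of S2, and its log2FC was -0.35 (G3), -0.26 (A7), and -0.34 (B2). Prosalpha7 had 52.7 and 47.6 CPM in G3 cells, 57.5 and 45.5 CPM in A7 cells, and 54.8 and 47.5 CPM in B2 cells, against 56.1 and 48.7 CPM in S2 cells. Its libraries overlapped between all lines, with log2FC between -0.06 and -0.03. The other 4 measured alpha genes, Pros25, Pros28.1, Pros29, and Prosalpha5, had log2FC between -0.345 and 0.005 over the 3 clones.

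Among the Rpn subunits, the scaffold genes Rpn1 and Rpn2 and the lid gene Rpn5 had the most CPM, with Rpn5 at 116 and 94.9 CPM in G3 cells, 113 and 99.6 CPM in A7 cells, and 115 and 99.3 CPM in B2 cells, against 139 and 101 CPM in S2 cells. Rpn1 had 103 and 107 CPM in G3 cells, 122 and 95.3 CPM in A7 cells, and 94.8 and 99.1 CPM in B2 cells, against 115 and 88.7 CPM in S2 cells. Both genes overlapped between the lines, with log2FC between -0.19 and -0.16 for Rpn5 and between -0.07 and 0.09 for Rpn1. Rpn6, a lid subunit, had 35.2 and 24.6 CPM in G3 cells, 37.3 and 28.8 CPM in A7 cells, and 35.3 and 35.5 CPM in B2 cells, against 39.0 and 36.4 CPM in S2 cells. The libraries of Rpn6 lay below both S2 libraries in G3 and B2, with log2FC of -0.34 and -0.09, which did not pass the threshold (adjusted p = 0.631 and 0.999 from edgeR).

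The remaining members with a catalytic, receptor, or deubiquitinase role did not pass the threshold against S2. Prosbeta1, with the caspase-like site, had 16.7 and 13.7 CPM in G3 cells, 17.3 and 13.9 CPM in A7 cells, and 13.5 and 15.6 CPM in B2 cells, against 17.5 and 15.3 CPM in S2 cells, with log2FC between -0.17 and -0.08. Pros54, the present Rpn10, a ubiquitin receptor, had 32.4 and 30.4 CPM in G3 cells, 36.7 and 26.9 CPM in A7 cells, and 32.8 and 29.0 CPM in B2 cells, against 40.1 and 29.5 CPM in S2 cells, with log2FC between -0.17 and -0.13. The libraries of both genes overlapped those of S2 in each clone. Rpn11, the deubiquitinase of the lid, had 25.3 and 20.5 CPM in G3 cells, 32.6 and 26.8 CPM in A7 cells, and 26.1 and 28.9 CPM in B2 cells, against 35.64 and 28.06 CPM in S2 cells. Both G3 libraries of Rpn11 lay below both S2 libraries, with a log2FC of -0.48 (standard error 0.19, adjusted p = 0.406, and 0.109 with the block, from edgeR). By structural group, the median log2FC in G3 was -0.20 for the alpha ring, -0.34 for the beta ring, -0.36 for the standard Rpt ATPases, and -0.19 for the Rpn subunits, and in A7 and B2 each of these medians lay between -0.17 and -0.08. The 4 standard genes on X, Pros28.1, Pros45, Rpt3, and Rpt4, had a median log2FC of -0.28 (G3), -0.08 (A7), and -0.12 (B2), against -0.27, -0.10, and -0.16 for the 23 autosomal ones.

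Between the replicates, the proteasome genes that passed the threshold all had the same direction. With the line as a term, 11 of the 29 proteasome genes were higher in replicate 2 than in replicate 1 and 0 were lower, where 7.34% of all genes tested were higher and 10.1% lower (edgeR, adjusted p under 0.05). At an unadjusted p under 0.05, 21 of the 29 passed, against 34.9% of all genes. The median log2FC of replicate 2 over replicate 1 was 0.32 for the 29 genes and -0.003 for all genes tested, and the log2FC lay above 0 for all 27 standard subunits and for Rpt6R. The exception was the paralog Rpt3R, at -0.34 (adjusted p = 0.442). In each line, the median of the members was above that of all genes tested, with 0.18 against -0.012 in G3, 0.40 against -0.032 in A7, 0.16 against -0.009 in B2, and 0.44 against -0.005 in S2. In all 4 lines replicate 2 was the higher one for 20 of the 29 genes, against 19.3% of all genes tested. The order of these medians between the lines was not tested, since a line has 1 library of each number.

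**Figure D5:**
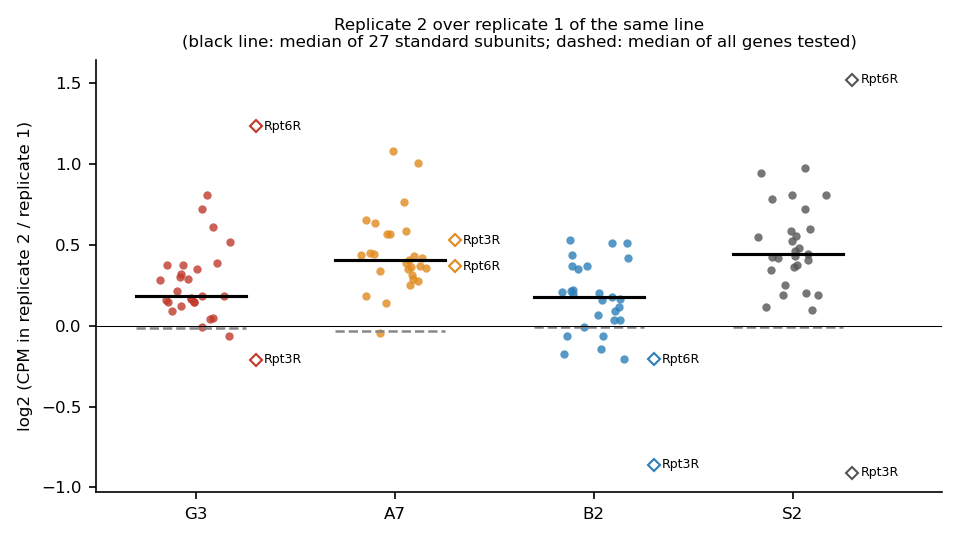
Log2 ratio of replicate 2 to replicate 1 of the same line, with 1 point per standard subunit gene and diamonds for the paralogs Rpt6R and Rpt3R. Black lines give the median of the 27 standard subunits and dashed lines the median of all genes tested, which lies near 0 in each line, while most standard subunits lie above it.

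The largest difference was that of Prosbeta5, with 28.8 CPM in replicate 2 and 17.4 CPM in replicate 1 of G3, and 45.7 and 27.7 CPM in S2 (log2FC 0.75, standard error 0.10, adjusted p = 0.00247 from edgeR). Prosalpha5 had 24.1 and 15.7 CPM in G3 cells, 23.7 and 14.0 CPM in A7 cells, and 22.91 and 16.04 CPM in B2 cells, against 26.1 and 13.6 CPM in S2 cells, in replicates 2 and 1, and every library of replicate 2 exceeded every library of replicate 1 (log2FC 0.71, adjusted p = 0.00475). Rpn12, a lid subunit, likewise had at least 29.3 CPM in replicate 2 and at most 21.9 CPM in replicate 1 (0.65, adjusted p = 0.00491). Rpn9, another lid subunit, had a log2FC of 0.62 (adjusted p = 0.0171), with antisense counts at 33.6% of its counts. The others called were Pros35 (0.48), Pros29 (0.40), Pros26 (0.38), Rpn3 (0.36), Pros45 (0.32), Rpt1 (0.32), and Rpn5 (0.29), so that the genes called came from both rings of the core, the base, and the lid. Rpn2, the gene with the highest level per kb, had 165 and 160 CPM in G3 cells, 184 and 151 CPM in A7 cells, and 170 and 165 CPM in B2 cells, against 172 and 159 CPM in S2 cells, with a log2FC of 0.12 (adjusted p = 0.309).

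The count of genes called between replicates depended on the fit. Among these alternatives, the share of all genes called is given for DESeq2 only, so the other counts stand without that background. It was 5 with DESeq2 (12.5% of all genes in either direction) and 5 without a term for the line, and between 3 and 9 when 1 library was left out, with 3 without either B2 library, 4 without either A7 or either S2 library, and 9 without either G3 library. Prosbeta5, Prosalpha5, and Rpn12 were called in each of these 8 fits. Replicate number goes with depth in these libraries, and with whatever else the libraries of a number share, and these cannot be told apart here.

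Among genes that work with the proteasome, the list of 5 subunits under other names had a median log2FC of -0.09 (G3), 0.08 (A7), and -0.13 (B2), with 0 of 5 called with or without the block, where of all genes 0.603% (G3), 0.375% (A7), and 0.0104% (B2) were called without it and 5.87%, 3.67%, and 0.427% with it. It holds Mov34 (Rpn8), Tbp-1 (Rpt5), CG13779 (Sem1), CG17331 (Prosbeta4), and CG13349 (Rpn13). Between replicates its median was 0.26, and 1 of 5, Tbp-1, was higher in replicate 2 (0.37, adjusted p = 0.0292 from edgeR), where 7.34% of all genes were higher and 10.1% lower. The 13 assembly factors and regulators had medians of -0.15 in G3, -0.06 in A7, -0.05 in B2, and 0.17 between replicates, with 0 of 13 called in any of these, against the same shares of all genes. Among 8 tested genes of the COP9 signalosome, a complex built like the proteasome lid, the medians were -0.10, -0.01, and -0.05 in G3, A7, and B2. With the block, its subunit CSN4 was lower in G3 (-0.69, adjusted p = 0.0317 from edgeR), and between replicates alien was higher (0.31, adjusted p = 0.0449), 1 of 8 in each case, against 5.87% of all genes called in G3 with the block and 7.34% higher between replicates.

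The 7 genes of ubiquitin supply and shuttling had medians of -0.04 (G3), 0.13 (A7), and 0.02 (B2). Without the block 0 were called, where 0.603% (G3), 0.375% (A7), and 0.0104% (B2) of all genes were. With the block, Ubqn, a shuttle, was lower in G3 (-0.57, adjusted p = 0.0202 from edgeR), where 5.87% of all genes were called. Rad23, another shuttle, was higher in A7 with the block (0.49, adjusted p = 0.0457 from edgeR), where 3.67% were called. Between replicates 1 of the 7 was higher, where 7.34% of all genes were, and 3 were lower, where 10.1% were. RpL40, a ribosomal protein gene whose product is fused to ubiquitin, was higher in replicate 2 (0.98, adjusted p = 0.00256 from edgeR), while Ubi-p5E (-0.96, adjusted p = 0.00135), Ubqn (-0.41, adjusted p = 0.00957), and the polyubiquitin gene Ubi-p63E (-0.26, adjusted p = 0.0461) were lower.

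Antisense counts at the standard subunits had a median share of 2.32% over 27 genes, between 0.628% for Rpn12 and 39.2% for Prosbeta2, against a median of 5.66% for all genes tested. The 12 standard genes that overlap another listed gene had a median share of 6.15%, and the 15 that overlap none had a median of 1.30% and a highest share of 19.0%, that of Rpt3. The extents in the table carry no strand, and reads of an overlapping gene on the other strand count as antisense here.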

How the data were processed

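Strand-specific nascent RNA libraries of S2, G3, A7, and B2, 2 per line, were analyzed, and the 4 ChIP and input samples were not analyzed here. The authors deposited sense and antisense counts per gene, without normalization or pooling. The submitters' processing notes name Bowtie 0.12.7, bedtools, and the dm3 assembly, and reads aligning to more than 1 place were removed. The counting program is not given in the sources used here. The columns numbered 3 in the tables were taken as replicate 2 of the labels, and 0 columns of per-sample values were left unused.

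Sense counts were tested in R 4.3.3 with edgeR 4.0.16 (quasi-likelihood test, TMM), with limma 3.58.1 loaded, and with DESeq2 1.42.0 as an alternative. In edgeR, G3 against S2 without the block and the comparison of replicates were run on simulated data. The line comparisons with the block and DESeq2 were not checked in this way. Standard errors for edgeR were computed back from its test, as the absolute log2FC divided by the square root of the F statistic. Log2 ratios of single libraries used a prior count of 2. Departures from the line mean were correlated across genes between libraries of the same number (Pearson's r 0.50 to 0.63 in the 6 pairs of lines), and the numbers were taken to pair the libraries. The common dispersion was 0.0657 without the replicate block and 0.0143 with it. Alternatives were the block, library size alone, no filter or a filter at 5 CPM, a fit of the 2 lines compared, and leaving out each library.

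The members and lists were chosen with earlier results of these data known. All 41 members matched RefSeq, 30 by symbol and 11 by an older symbol, and its Release 6 assembly was used for names only. Values are given for members called in any comparison, the extremes of each comparison and structural group, the catalytic, receptor, and deubiquitinase subunits, and the paralogs. Other genes were named after their values were seen. CG2046 was left out of the subunits under other names, since RefSeq does not annotate it as one.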

Additional observations from a re-analysis of the deposited data

Results flagged for a closer look

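Prosbeta2 differed between clones by a test of the difference itself: with the replicate block, its log2FC was -0.857 for G3 against A7 (adjusted p = 0.0243 from edgeR) and 0.819 for A7 against B2 (adjusted p = 0.0231), and without the block neither passed the threshold. With the block and 1 library left out, G3 against A7 stayed under an adjusted p of 0.05 only without either S2 library, with log2FC between -0.863 and -0.841 and adjusted p between 0.0272 and 0.122. A7 against B2 stayed under it only without either S2 or either G3 library, with log2FC between 0.771 and 0.914 and adjusted p between 0.0259 and 0.217. Groups of 2 libraries are too small for a test of single outlying libraries.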

How the results depend on the processing

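The replicate block moved the count of proteasome genes called against S2 to 3 in G3, 2 in A7, and 1 for the mean of the clones, and it changed no call in B2. DESeq2 gave 1 in A7 and 1 for the mean, and no filter gave 1 in A7. With the block and 1 library left out, the counts lay between 0 and 3 in G3, between 0 and 2 in A7, and between 0 and 1 for the mean. Between replicates, the count was 5 with DESeq2, 7 with the filter at 5 CPM, 5 without a line term, and between 3 and 9 with 1 library left out. The counts with no filter and with 1 library left out are given without the share of all genes called in the same fit. Except for DESeq2, this also holds for these counts between replicates. Median log2FC with 1 library left out lay between -0.456 and 0.047 in G3, between -0.295 and 0.136 in A7, between -0.340 and 0.098 in B2, between -0.374 and 0.093 for the mean, and between 0.245 and 0.362 between replicates, and the upper end in G3, B2, and the mean was the fit without S2 replicate 2 and in A7 that without A7 replicate 1. With the block those medians lay between -0.337 and -0.074 in G3, between -0.188 and 0.003 in A7, and between -0.211 and 0.012 in B2, above 0 without A7 replicate 1 in A7 and without B2 replicate 2 in B2. Library size alone moved the median of all genes by -0.119 in G3 and -0.100 in B2, and that of the members to -0.388 (G3), -0.127 (A7), and -0.243 (B2). Levels not divided by length and antisense shares of single libraries are given as values only. Motifs and protein sequences were not analyzed here. At 17 and 9 counts in S2, depth limits Rpt6R, and the 11 paralogs under the filter could not be compared.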
